A study of Mus musculus with 83 samples.

Results

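The transcripts of the mitochondrial genome were examined in the colon of 83 male C57BL/6J/Ukj mice. They are the genes of the count table whose symbol starts with mt-, which gave 34 of the 37764 genes listed. The mice were 3, 9, 15, 24 or 28 months old, with 16, 16, 16, 17 and 18 mice per age, and the labels give no treatment or mutation and state that the mice were kept only to age. Messenger RNA was enriched by its poly(A) tail and sequenced as a stranded library, and 3 library batches each held 4 to 7 mice of every age. The age groups are different mice, not the same mice followed over time.

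The mitochondrial genome is a small circular DNA carried in many copies inside the organelle. It encodes subunits of the respiratory chain and of ATP synthase, the rRNAs of the mitochondrial ribosome and the tRNAs that serve it, and every other mitochondrial protein is encoded in the nucleus. Both strands are transcribed into long precursors, and the tRNAs that lie between the other genes are cut out to release the messenger RNAs and rRNAs. Most mitochondrial messenger RNAs carry a short poly(A) tail, while tRNAs are made without one. In the colon, absorptive colonocytes rely on mitochondrial oxidation of butyrate.

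Of the 37 genes annotated on the mitochondrial genome in GRCm38, the 34 analysed here comprise all 13 protein-coding genes, both rRNA genes and 19 of 22 tRNA genes. The tRNA genes mt-Tf, mt-Tk and mt-Tg were not analysed here. On the minus strand lie 9 of the 37, which are mt-Nd6 and 8 tRNA genes. After the filter on low counts 23 of the 34 could be tested, namely the 13 protein-coding genes, the 2 rRNA genes and 8 tRNA genes.

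Between 23026370 and 75838290 read pairs were counted per mouse (median 35495123), and the 649 same-age pairs of mice each differed beyond counting noise. All 7 colonocyte and all 5 goblet cell markers had counts, as the colon label implies. The mice 15 months replicate 16 and 28 months replicate 13 stood apart with the highest mitochondrial shares, and the results below that moved most without them are given both ways.

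The sequences of 5 tRNA genes of the plus strand are shown first, the 4 with the highest mean counts and mt-Tt, since each is flanked by the genes whose counts are described next. They are the GENCODE M21 transcripts (GRCm38), 5′ to 3′, and capitals mark the anticodon.
mt-Ti, for isoleucine, chrM:3706-3774: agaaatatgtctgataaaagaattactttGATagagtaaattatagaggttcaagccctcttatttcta
mt-Tm, for methionine, chrM:3845-3913: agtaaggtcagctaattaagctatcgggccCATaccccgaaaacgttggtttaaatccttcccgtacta
mt-Tw, for tryptophan, chrM:4950-5016: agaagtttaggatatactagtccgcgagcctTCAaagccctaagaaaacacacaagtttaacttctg
mt-Tt, for threonine, chrM:15289-15355: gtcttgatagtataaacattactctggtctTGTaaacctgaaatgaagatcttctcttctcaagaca
mt-Tl1, for leucine, chrM:2676-2750: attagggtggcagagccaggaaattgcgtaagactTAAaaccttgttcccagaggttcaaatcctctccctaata
In the order of the genome, mt-Rnr2 is followed by mt-Tl1, mt-Nd1, mt-Ti, mt-Tq, mt-Tm, mt-Nd2 and mt-Tw, and mt-Cytb is followed by mt-Tt. The end of mt-Nd1 at position 3707 overlaps the start of mt-Ti at 3706.

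Protein-coding mitochondrial transcripts held about 4% of all counts. Their share was 3.75 ± 0.185% in 3-month mice (SD, n = 16), 4.03 ± 0.287% in 9-month mice (n = 16), 3.93 ± 0.458% in 15-month mice (n = 16), 3.93 ± 0.257% in 24-month mice (n = 17) and 4.13 ± 0.382% in 28-month mice (n = 18). The ages overlapped: the 3-month mice ranged from 3.34 to 4.01% with a median of 3.79%, and the 28-month mice from 3.57 to 5.35% with a median of 4.09%. From 3 to 28 months the mean rose in each batch, from 3.73 to 4.22%, from 3.76 to 3.98% and from 3.76 to 4.16%. The difference of 0.383 percentage points became 0.311 without 15 months replicate 16 and 28 months replicate 13. Without these 2 mice the share was 3.83 ± 0.238% in 15-month mice (n = 15) and 4.06 ± 0.237% in 28-month mice (n = 17), and the 28-month mean of the first batch was 4.03%. No test was made of a summed share.

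The share of the rRNAs was far smaller and showed no such order. It was 0.260 ± 0.0694% in 3-month mice, 0.249 ± 0.0366% in 9-month mice, 0.268 ± 0.0522% in 15-month mice, 0.257 ± 0.0259% in 24-month mice and 0.246 ± 0.0497% in 28-month mice. The tRNA genes together held 17.3 ± 2.97 CPM (counts per 1000000 counts) in 3-month mice, 17.8 ± 2.74 in 9-month mice, 18.8 ± 3.37 in 15-month mice, 18.2 ± 1.87 in 24-month mice and 19.1 ± 3.35 in 28-month mice. These differences between ages were smaller than the spread within an age. Without the 2 mice that stood apart, the rRNA share was 0.256 ± 0.0232% at 15 months and 0.238 ± 0.0346% at 28 months, and the tRNA level 18.3 ± 2.83 and 19.1 ± 3.45 CPM. All classes together made up 4.01 ± 0.232% of counts at 3 months and 4.38 ± 0.408% at 28 months, or 4.30 ± 0.231% without 28 months replicate 13.

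**Figure D1:**
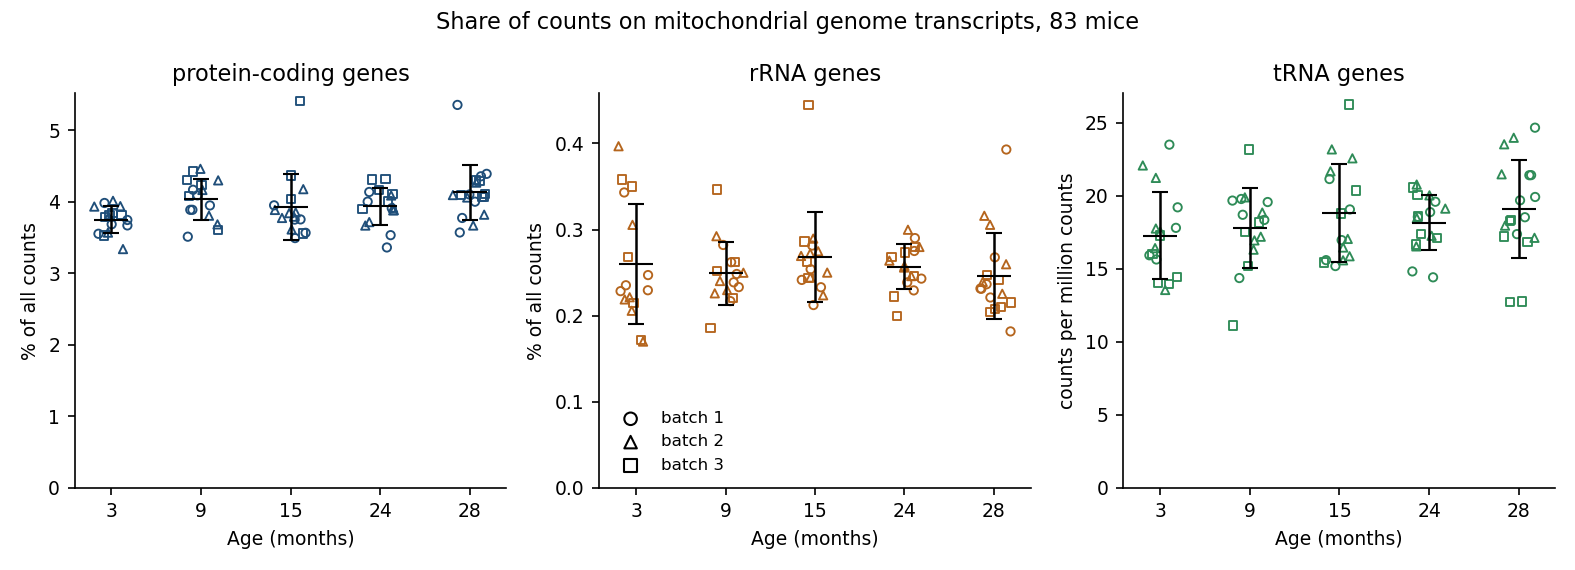
Share of all counts on protein-coding and rRNA genes of the mitochondrial genome (percent) and on its tRNA genes (CPM) by age in months. Each symbol is 1 mouse, its shape gives the library batch, and bars give the mean and SD; the 3-month mice lie at 3.34 to 4.01% for protein-coding genes, and single mice at 15 and 28 months lie above 5%.

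In the bulk tissue of each mouse, a lower level can mean fewer cells of a type or less RNA per cell, and these cannot be told apart. Over all mice, mt-Co1, the catalytic subunit of cytochrome c oxidase (complex IV), took 47.5% of all mitochondrial counts. The cytochrome b subunit of complex III, mt-Cytb, took 14.03%, and mt-Nd1, a subunit of NADH dehydrogenase (complex I), took 12.2%. Within the protein-coding counts mt-Co1 held 49.9 ± 2.16% at 3 months and 51.5 ± 1.68% at 28 months.

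Per kilobase of gene, the median level over the 83 mice was 12668 CPM for mt-Co1, 5390.4 for mt-Nd1 and 5162 for mt-Cytb. A second tier held mt-Nd2 at 2106 CPM per kilobase, mt-Nd5 at 1998 and mt-Nd4 at 1849, all of complex I. The rRNAs followed with mt-Rnr2, the large ribosomal RNA, at 1006 and mt-Rnr1, the small ribosomal RNA, at 908. The range of mt-Nd2 (1654 to 2668) overlapped those of mt-Nd5 (1271 to 2759) and mt-Nd4 (1477 to 2498), whereas no mouse had mt-Co1 below 9968. The only protein gene of the minus strand, mt-Nd6, had a median of 110.2 CPM per kilobase.

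The other 6 protein-coding genes had much lower levels. Per kilobase, the medians were 64.6 CPM for mt-Co2, 27.6 for mt-Co3, 24.1 for mt-Atp6, 21.7 for mt-Atp8, 8.43 for mt-Nd4l and 2.23 for mt-Nd3. These genes lie side by side on the genome, encode the other core subunits of complex IV, both mitochondrial subunits of ATP synthase and a pair of complex I subunits, and held 0.241% of all mitochondrial counts together.

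This block of genes has a copy in the nuclear genome. On chromosome 1, chr1:24611535-24616197 of GRCm38, 7 annotated unprocessed pseudogenes on the minus strand follow the order of chrM:6390-11042 and are 99.71 to 100% identical to the mitochondrial genes. They are Gm29216 for part of mt-Co1, Gm28661 for mt-Co2, Gm10925 for mt-Atp6, Gm28437 for mt-Co3, Gm28438 for mt-Nd3, Gm10222 for mt-Nd4l and Gm28439 for part of mt-Nd4. The gene mt-Atp8 has no annotated counterpart of its own there. Most of it lies opposite a gap between Gm28661 and Gm10925 that is 233 bases long in both genomes, and its end, from position 7927 where it overlaps mt-Atp6, lies in the stretch matched by Gm10925. The few differences, and a stretch without any, are shown because a unique mapping rests on such differences. Capitals mark the differing base, and positions are counted from 1 at the 5′ end of the mitochondrial gene: A1066T in the pair of mt-Co1 and Gm29216, and T3C in the pair of mt-Nd3 and Gm28438. The stretch of mt-Nd4l and Gm10222 has no difference.
mt-Co1, chrM:6390-6453: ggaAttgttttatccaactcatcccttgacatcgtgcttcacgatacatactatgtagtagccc
Gm29216, chr1:24616125-24616188, minus strand: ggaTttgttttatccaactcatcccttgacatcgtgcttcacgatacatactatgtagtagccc
mt-Nd3, chrM:9459-9521: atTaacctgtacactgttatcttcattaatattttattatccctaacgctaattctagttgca
Gm28438, chr1:24613057-24613119, minus strand: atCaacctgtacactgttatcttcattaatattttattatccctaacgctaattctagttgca
mt-Nd4l, chrM:10051-10170: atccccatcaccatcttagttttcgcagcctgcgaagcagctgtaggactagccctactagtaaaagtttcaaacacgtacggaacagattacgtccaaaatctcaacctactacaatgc
Gm10222, chr1:24612407-24612526, minus strand: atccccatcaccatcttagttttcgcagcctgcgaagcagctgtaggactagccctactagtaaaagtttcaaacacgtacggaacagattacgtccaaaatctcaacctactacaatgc

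The authors state that only uniquely mapped reads were kept, by a flag that drops secondary alignments. That flag alone leaves the primary alignment of a read that maps to several places. Whether such reads remain in the counts was not tested. Of all windows of 100 bases within a gene, 99.5% occur unchanged in another annotated gene for mt-Co2 and mt-Atp6, 99.9% for mt-Co3, 97.6% for mt-Nd3 and 98.5% for mt-Nd4l. The share is 60.8% for mt-Nd4, 30.8% for mt-Co1 and 3.19% for mt-Nd2, and 0% for the other protein-coding and the rRNA genes, mt-Atp8 included, for which the unannotated gap on chromosome 1 was not searched. The levels and changes of mt-Co2, mt-Atp8, mt-Atp6, mt-Co3, mt-Nd3 and mt-Nd4l are therefore uncertain. So are those of mt-Nd4 and mt-Co1 as far as their copied part goes, and with them the place of mt-Nd4 in the order of levels above. The part of the copies in these counts was not tested. The pseudogenes of chromosome 1 had median counts per mouse between 69 for Gm10222 and 628 for Gm10925, against 96 for mt-Nd4l and 571 for mt-Atp6. Less similar pseudogenes lie on chromosome 2. Gm13340 matches all of mt-Co1 at 97.6% identity (median count 401). Gm13339 matches 49.1% of mt-Nd2 at 96.7% (median count 5), and Gm13341 matches mt-Co2 at 95.9% (median count 38).

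**Figure D2:**
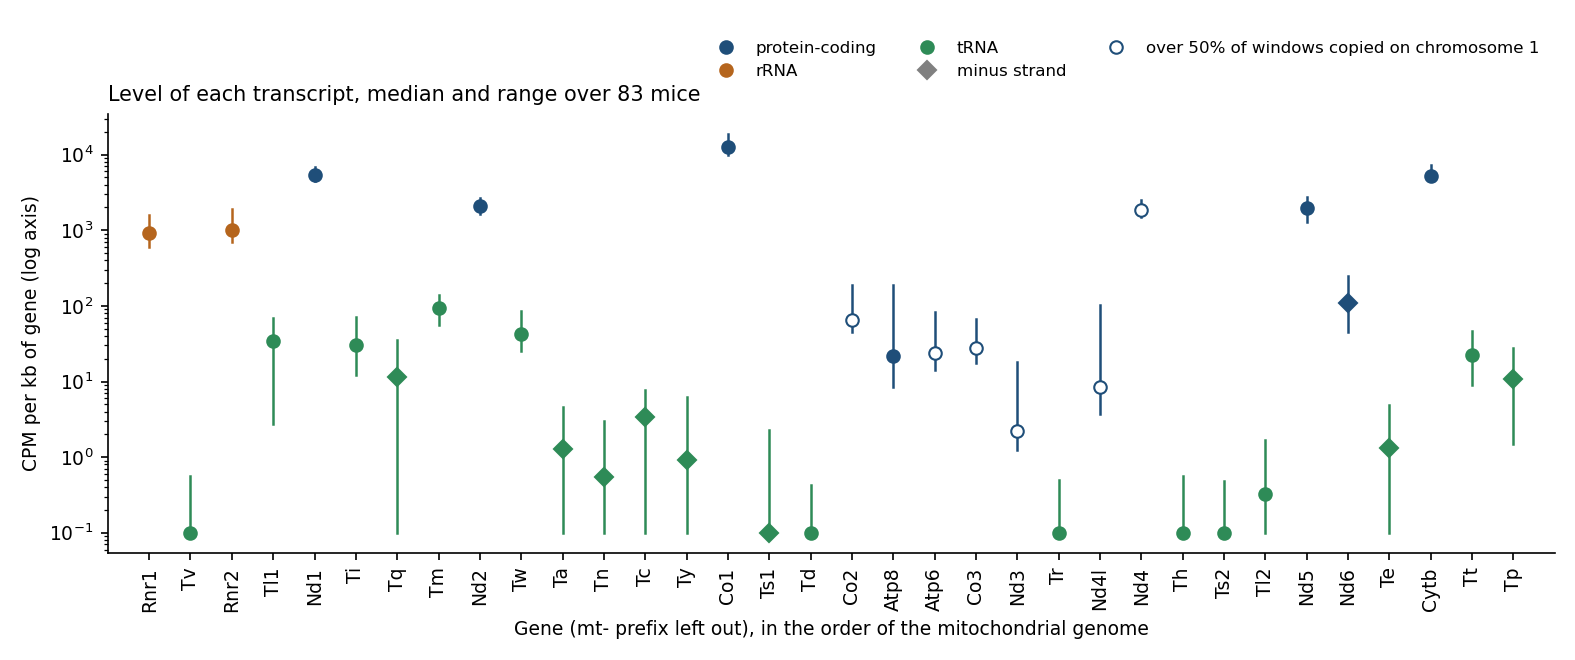
Level of the 34 genes in the order of the mitochondrial genome, as CPM per kilobase of gene on a log axis, with the median (symbol) and the range (line) over 83 mice. Diamonds lie on the minus strand, open circles mark protein-coding genes with over 50% of their 100-base windows copied elsewhere, and values below 0.1 are drawn at 0.1; the low run from mt-Co2 to mt-Nd4l stands between mt-Co1 at 12668 and mt-Nd4 at 1849.

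In these low genes, single mice lay far from the rest. The mouse 24 months replicate 3 had 12.03 times the median CPM of mt-Nd4l, 24 months replicate 11 had 8.63 times that of mt-Atp8, 24 months replicate 10 had 8.10 times that of mt-Nd3, and 24 months replicate 2 had 3.49 times that of mt-Atp6. In the pseudogenes, 9 months replicate 7 had 18.2 times the median of Gm29216 and 3 months replicate 6 had 11.9 times that of Gm28437. No mouse had over 3 times the median of mt-Nd1, mt-Nd2, mt-Co1, mt-Nd4, mt-Nd5, mt-Nd6, mt-Cytb or the rRNAs.

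The tRNA genes had low counts, as measured in a library enriched for poly(A) tails. They are 59 to 75 bases long, shorter than the sequenced reads of 100 bases. Several, such as mt-Ti, mt-Tw and mt-Tt, overlap or adjoin a neighbouring gene. The part of read pairs that also touch a neighbouring gene was not tested. The 4 with the highest mean counts had medians of 93.9 CPM per kilobase for mt-Tm, 42.5 for mt-Tw, 34.8 for mt-Tl1 and 30.5 for mt-Ti. In counts, mt-Tm had a median of 232 per mouse and mt-Ti one of 75. The other tested tRNA genes, mt-Tq, mt-Tc, mt-Tt and mt-Tp, had median counts of 8 to 56. The 11 tRNA genes that could not be tested had median counts of 0 to 3, and mt-Ts2 had a count in 1 mouse only.

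To find which transcripts differed between young and old mice, 28 and 3 months were compared first. Between 3 and 28 months 9 of the 23 transcripts tested differed, 7 higher and 2 lower, and they did not move together: mt-Nd1 rose while its neighbours mt-Ti and mt-Nd2 fell. That is 39.1% of the members, against a background of 49.4% of all 18325 genes called in this comparison, 23.5% higher and 25.9% lower. The median log2 change was 0.15 over the 23 transcripts and -0.01 over all genes tested. By class, 5 of 13 protein-coding genes were called with 4 higher and 1 lower, 0 of 2 rRNAs, and 4 of 8 tRNA genes with 3 higher and 1 lower. At an unadjusted p below 0.05, 0 of the 2 rRNAs passed either, and DESeq2 called neither of them, but without the 2 mice that stood apart edgeR called mt-Rnr2 lower.

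Among the complex I subunits, mt-Nd1 was the most strongly supported rise of a protein-coding gene. Its normalized CPM, scaled to the TMM-normalized library size, ranged from 4375 to 5272 in 3-month mice with a median of 4715, from 4341 to 5876 in 9-month mice with a median of 5293, from 4362 to 5964 in 15-month mice with a median of 5001, from 4532 to 5903 in 24-month mice with a median of 5267, and from 4747 to 6429 in 28-month mice with a median of 5322. All 18 mice of 28 months lay above the 3-month median and 12 of them above every 3-month mouse. The mean rose from 4717 ± 234 to 5468 ± 437, a log2 change of 0.21 (SE 0.0402, edgeR quasi-likelihood test, adjusted p = 1.35e-05). Within the batches the log2 difference was 0.22, 0.18 and 0.25.

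In contrast, mt-Nd2, another complex I subunit of the same strand, fell. It ranged from 1905 to 2389 CPM in 3-month mice with a median of 2211, from 1732 to 2618 in 9-month mice with a median of 2282, from 1983 to 2528 in 15-month mice with a median of 2245.5, from 1752 to 2322 in 24-month mice with a median of 2155, and from 1774 to 2481 in 28-month mice with a median of 1991. The groups overlapped, and 3 of the 18 mice of 28 months exceeded the 3-month median. The mean changed from 2210 ± 138 to 2024 ± 190, a log2 change of -0.12 (SE 0.0390, adjusted p = 0.0104). Within the batches the difference was -0.08, -0.10 and -0.19, and -0.14 in the first without 28 months replicate 13.

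The ratio of both transcripts within a mouse does not depend on the scaling of the library. As a log2 ratio of mt-Nd1 over mt-Nd2 it was 1.10 ± 0.0767 in 3-month mice, 1.21 ± 0.106 in 9-month mice, 1.16 ± 0.0864 in 15-month mice, 1.32 ± 0.0855 in 24-month mice and 1.44 ± 0.0914 in 28-month mice. The 3-month mice ranged from 0.92 to 1.21 and the 28-month mice from 1.28 to 1.60, so these groups did not overlap. The share of 49.4% of genes called between these ages counts single genes, and no such share was computed for ratios. At 24 months 16 of 17 mice exceeded every 3-month mouse, at 15 months 5 of 16 and at 9 months 7 of 16. The pair was chosen after its values were seen, so the ratio is a description. From 3 to 28 months the ratio of mt-Nd1 over mt-Nd2 went from 1.15 to 1.44, from 1.10 to 1.37 and from 1.04 to 1.48 in the 3 batches. In 3 other ratios computed, the 3- and 28-month mice overlapped: the mean log2 ratio was 1.68 ± 0.163 and 1.87 ± 0.104 for mt-Co1 over mt-Cytb, 0.904 ± 0.106 and 0.757 ± 0.107 for mt-Rnr2 over mt-Rnr1, and -6.08 ± 0.552 and -6.04 ± 0.533 for mt-Nd6 over mt-Nd5.

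**Figure D3:**
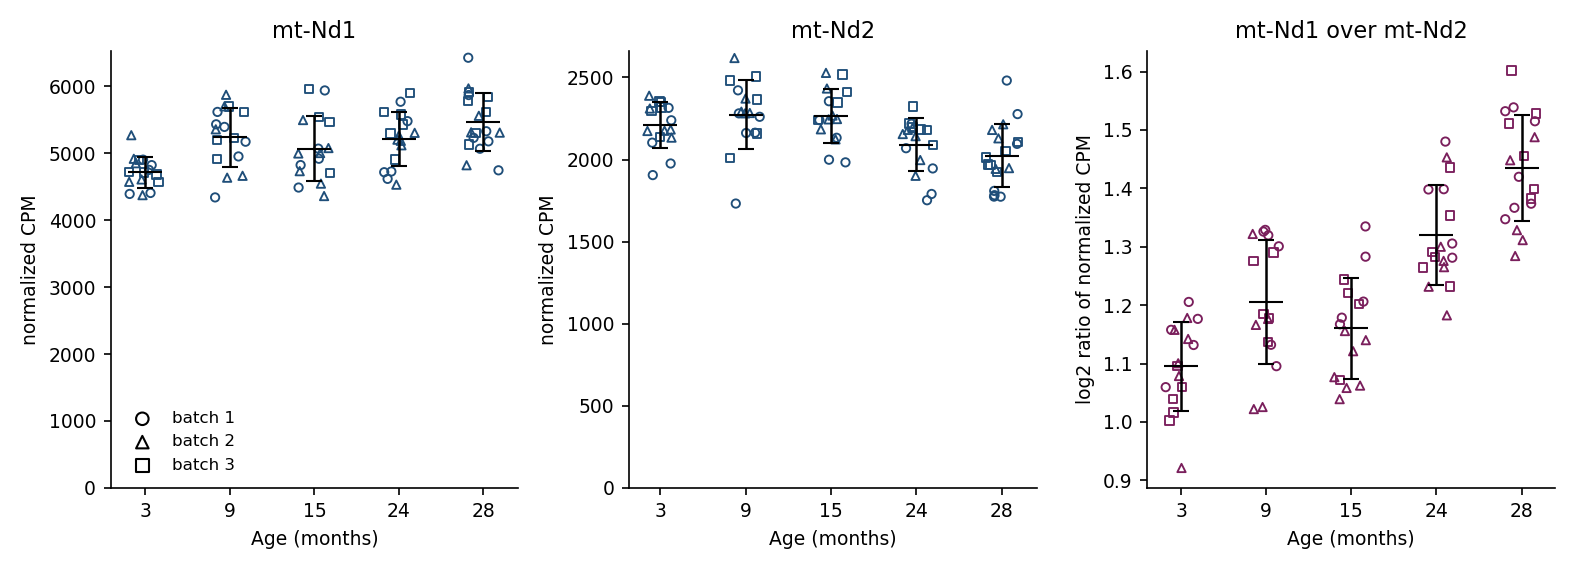
Normalized CPM of mt-Nd1 and mt-Nd2 and the log2 ratio of the first over the second, by age in months. Each symbol is 1 mouse, its shape gives the library batch, and bars give the mean and SD; the ratio axis does not start at 0, and the 28-month mice (1.28 to 1.60) lie above all 3-month mice (0.92 to 1.21).

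The other complex I subunits varied in their result. mt-Nd5 rose from 3443 ± 373 to 3809 ± 421 CPM, a log2 change of 0.15 (SE 0.0605, adjusted p = 0.0371), and 15 of the 18 older mice exceeded the 3-month median. Within the batches mt-Nd5 differed by 0.24, 0.04 and 0.14. mt-Nd4 had 2540.1 ± 107 CPM at 3 months and 2524 ± 308 at 28 months, a log2 difference of -0.01 (adjusted p = 0.891). The minus-strand gene mt-Nd6 had 53.1 ± 16.1 and 60.3 ± 19.99 CPM, a difference of 0.23 with a wide SE of 0.152 (adjusted p = 0.230). The uncertain genes mt-Nd3 (-0.32, SE 0.250) and mt-Nd4l (0.34, SE 0.303) did not pass the threshold.

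In complex III, mt-Cytb had 5879 ± 239 CPM at 3 months and 5717 ± 495 at 28 months, a log2 difference of -0.04 (SE 0.0375, adjusted p = 0.402). In complex IV, mt-Co1 rose. Its CPM ranged from 15489 to 21505 at 3 months with a median of 18635.5, and from 17677 to 29623 at 28 months with a median of 20393, and 15 of the 18 older mice lay above the 3-month median. The log2 change was 0.15 (SE 0.0453, adjusted p = 0.0056), and 0.13 without the 2 mice that stood apart (adjusted p = 0.00429). Within the batches it was 0.19, 0.06 and 0.18, and 0.09 in the first without 28 months replicate 13.

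The second complex IV subunit, mt-Co2, was called as a rise of 0.38 (SE 0.148, adjusted p = 0.0298), but its counts are among those with a near-identical copy. Within the batches mt-Co2 differed by 0.12, 0.53 and 0.54. Its 3-month mice ranged from 31.8 to 68.0 CPM and its 28-month mice from 29.8 to 125.0, the highest being 28 months replicate 17. Without that mouse the log2 difference was 0.28 (adjusted p = 0.111), and without the most deeply sequenced mice, 28 months replicates 1 and 6, it was 0.29 (adjusted p = 0.108). mt-Co3 differed by 0.15 (SE 0.159, adjusted p = 0.467). Of the ATP synthase subunits, mt-Atp6 differed by -0.01 (SE 0.158) and mt-Atp8 by 0.33 (SE 0.236), and neither passed the threshold.

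Both rRNAs varied widely among the youngest mice. The small rRNA mt-Rnr1 ranged from 587 to 1471 CPM at 3 months with a median of 849.9 and from 695 to 1533 at 28 months with a median of 860.1. The large rRNA mt-Rnr2 ranged from 1132 to 2488 at 3 months with a median of 1524 and from 1059 to 2428 at 28 months with a median of 1429. The log2 differences were -0.02 (SE 0.0922, adjusted p = 0.883) and -0.16 (SE 0.0886, adjusted p = 0.128). Without the 2 mice that stood apart that of mt-Rnr2 was -0.21 (SE 0.0803, adjusted p = 0.0308) and passed the threshold, with -0.25, 0.02 and -0.41 within the batches.

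The tRNA genes gave the widest changes in both directions. mt-Tt, which follows mt-Cytb, ranged from 0.645 to 2.00 CPM in 3-month mice with a median of 1.23, from 1.16 to 2.04 in 9-month mice with a median of 1.44, from 0.942 to 2.12 in 15-month mice with a median of 1.46, from 1.11 to 2.28 in 24-month mice with a median of 1.57, and from 1.03 to 3.21 in 28-month mice with a median of 2.01. At 28 months 9 of 18 mice exceeded every 3-month mouse. The log2 change was 0.71 (SE 0.122, adjusted p = 1.73e-06), with 0.59, 0.91 and 0.69 within the batches.

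mt-Tw, which follows mt-Nd2, ranged from 1.72 to 3.90 CPM in 3-month mice with a median of 2.47, from 1.86 to 3.68 in 9-month mice with a median of 2.68, from 1.91 to 3.82 in 15-month mice with a median of 2.70, from 2.12 to 4.52 in 24-month mice with a median of 3.27, and from 2.20 to 5.55 in 28-month mice with a median of 3.29. It rose by 0.46 (SE 0.117, adjusted p = 0.00102), while the adjoining mt-Nd2 fell. Within the batches the difference was 0.44, 0.59 and 0.37.

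mt-Ti, which lies between mt-Nd1 and mt-Nd2, went the other way. It ranged from 1.34 to 4.90 CPM in 3-month mice with a median of 2.44, from 1.12 to 4.62 in 9-month mice with a median of 2.15, from 1.82 to 3.21 in 15-month mice with a median of 2.33, from 1.21 to 2.84 in 24-month mice with a median of 2.00, and from 0.824 to 2.83 in 28-month mice with a median of 1.77. At 28 months 2 of 18 mice exceeded the 3-month median. The log2 change was -0.62 (SE 0.141, adjusted p = 2.17e-04), with -0.60, -0.58 and -0.68 within the batches.

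Of the other tRNA genes, the minus-strand mt-Tp rose by 0.54 (SE 0.229, adjusted p = 0.0512). mt-Tm had 6.59 ± 1.16 CPM at 3 months and 6.08 ± 1.26 at 28 months, a difference of -0.12 (SE 0.0842, adjusted p = 0.246). mt-Tl1 differed by 0.30 (SE 0.195, adjusted p = 0.221), and 28 months replicates 1 and 6 had 0.208 and 0.211 CPM against a median of 2.85 at that age. Without these 2 mice the difference was 0.48 (SE 0.142, adjusted p = 0.00434) and passed the threshold, and in the third batch, which holds both, it was 0.53 in place of -0.0061, beside 0.54 and 0.36 in the others. mt-Tq (0.28, SE 0.332) and mt-Tc (0.16, SE 0.264) did not pass the threshold. A list of histone genes and small structured RNAs, drawn up for transcripts that mostly lack a poly(A) tail, gave 0 genes higher and 16 lower of 27 tested, beside 23.5% and 25.9% of all genes, with a median log2 change of -0.33. Its levels were uneven: Hist1h1c, not called, had 189 ± 53.0 CPM at 3 months and 167 ± 21.7 at 28 months, Hist1h2bc had 95.3 ± 9.32 and 81.1 ± 9.73, Hist2h2be had 17.3 ± 1.17 and 14.9 ± 1.38, and each of the others tested had a mean below 5 CPM at both ages. Whether the counted transcripts of these histone genes lack a tail was not tested. The part of the poly(A) enrichment in the tRNA counts was not tested.

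**Figure D4:**
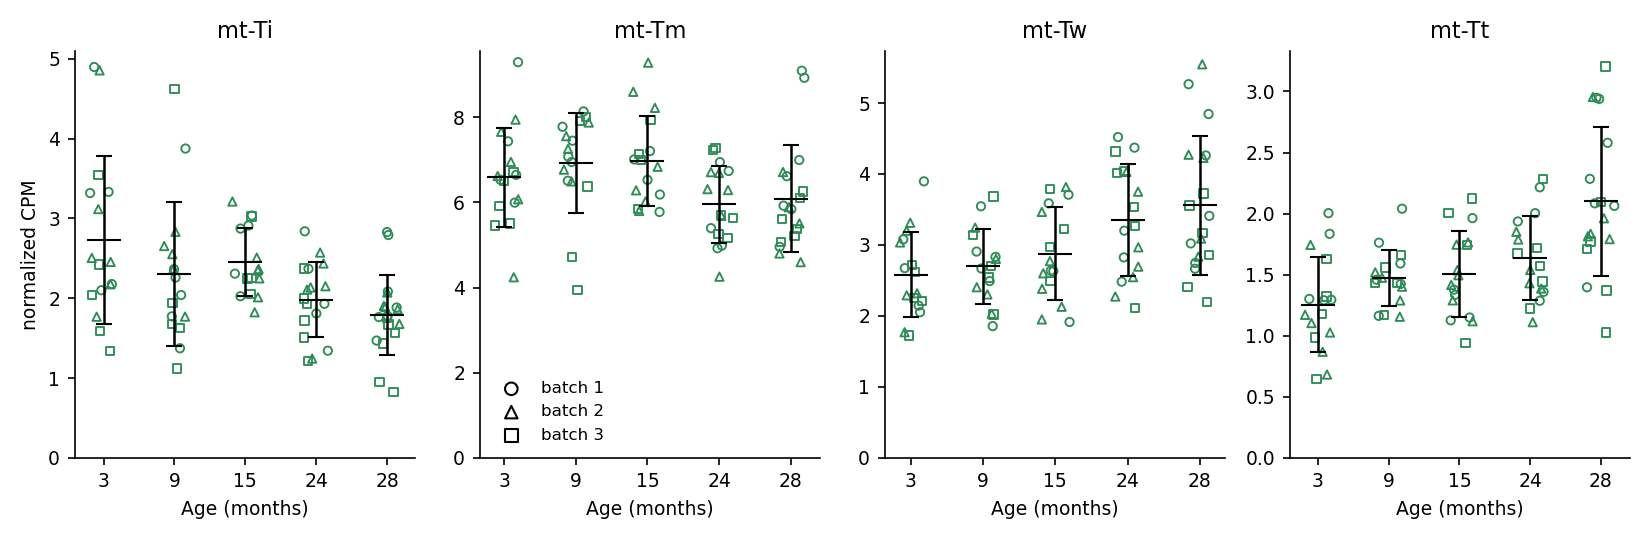
Normalized CPM of mt-Ti, mt-Tm, mt-Tw and mt-Tt by age in months. Each symbol is 1 mouse, its shape gives the library batch, and bars give the mean and SD; the median of mt-Tt goes from 1.23 at 3 months to 2.01 at 28 months, and that of mt-Ti from 2.44 to 1.77.

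The steps between neighbouring ages were then compared. From 3 to 9 months, 3 of the 23 transcripts were called, all higher and all protein-coding, beside 8.69% of all genes. mt-Nd1 rose from 4717 ± 234 to 5238 ± 439 CPM, by 0.15 (SE 0.0413, adjusted p = 0.0206), and 13 of 16 mice of 9 months lay above the 3-month median. mt-Cytb rose by 0.11 (SE 0.0385, adjusted p = 0.0916), with 0.11 in each of the 3 batches, and without 28 months replicate 17 by the same 0.11 with an adjusted p of 0.106. mt-Nd4l was called at 0.85 (SE 0.309, adjusted p = 0.0927), but without 9 months replicate 7, which had 17.0 CPM against a median of 3.11, the difference was 0.58 (adjusted p = 0.269). With the read pairs of Gm10222 and the other copies added it was 0.43 (adjusted p = 0.314).

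From 9 to 15 months none of the 23 transcripts was called by edgeR, beside 0.431% of all genes. At an unadjusted p below 0.05, 1 transcript passed, mt-Nd4l, and DESeq2 called 0.

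From 15 to 24 months 2 transcripts were called, both lower, beside 13.5% of all genes. mt-Nd2 fell from 2266 ± 162 to 2090.0 ± 160.1 CPM, by 0.12 on the log2 scale (SE 0.0396, adjusted p = 0.0467), and 1 of 17 mice of 24 months exceeded the 15-month median. Within the batches the difference was -0.13, -0.13 and -0.11. mt-Tm, the tRNA gene just before mt-Nd2, fell from 6.98 ± 1.06 to 5.95 ± 0.897 CPM, by 0.22 on the log2 scale (SE 0.0853, adjusted p = 0.0896). It ranged from 5.78 to 9.28 CPM at 15 months and from 4.26 to 7.27 at 24 months, with 9 of 17 older mice below every 15-month mouse. The call of mt-Tm was lost without 15 months replicate 16 and 28 months replicate 13 (-0.19, adjusted p = 0.146) and without 9 months replicate 7 (-0.22, adjusted p = 0.101). Without the 2 mice that stood apart, mt-Nd4 was called in this step as well (-0.09, adjusted p = 0.0937, against 0.125 with them). mt-Nd1 differed by 0.03 in this step (SE 0.0407, adjusted p = 0.648).

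From 24 to 28 months mt-Tt was the only transcript called, beside 11.7% of all genes. It rose from 1.64 ± 0.341 to 2.102 ± 0.611 CPM, by 0.33 (SE 0.118, adjusted p = 0.0693), and without 28 months replicate 17 the log2 difference was 0.30 and did not pass the threshold (adjusted p = 0.126).

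From 15 to 28 months 8 of 23 transcripts were called, 3 higher and 5 lower, beside 42.4% of all genes, 20.2% higher and 22.2% lower. The higher ones were mt-Nd1 (0.10, SE 0.0403, adjusted p = 0.0358), mt-Tw (0.30, SE 0.116, adjusted p = 0.0393) and mt-Tt (0.43, SE 0.121, adjusted p = 0.00326). The lower ones were mt-Nd2 (-0.16, SE 0.0391, adjusted p = 0.00113), mt-Ti (-0.46, SE 0.141, adjusted p = 0.00729), mt-Tm (-0.20, SE 0.0846, adjusted p = 0.0511), mt-Cytb (-0.08, SE 0.0376, adjusted p = 0.0722) and mt-Rnr2 (-0.23, SE 0.0887, adjusted p = 0.0385). In a fit of only these ages, mt-Nd1 (0.10, adjusted p = 0.117) and mt-Cytb (-0.08, adjusted p = 0.248) did not pass the threshold. This comparison and that of 28 with 3 months share the 28-month mice.

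The log2 difference of the large rRNA was -0.12 and -0.05 in the first batches and -0.56 in the third, where 1 of the 4 mice of 15 months was replicate 16. Without the 2 mice that stood apart it was -0.27, -0.05 and -0.37, and -0.21 over all batches (adjusted p = 0.0334), while mt-Rnr1 differed by -0.0021 over all mice (SE 0.0925, adjusted p = 0.990). mt-Tw in turn differed by 0.37 and 0.55 in the first batches and by -0.06 in the third, and without the 2 mice that stood apart by 0.43, 0.55 and 0.05. mt-Tl1 passed the threshold without 28 months replicates 1 and 6 (0.32, adjusted p = 0.0704), against 0.14 (adjusted p = 0.621) with them. The call of mt-Cytb did not hold in DESeq2 or with size factors in place of TMM, nor without 28 months replicates 1 and 6 (-0.06, adjusted p = 0.259), 28 months replicate 17 (-0.08, adjusted p = 0.112) or 9 months replicate 7 (-0.07, adjusted p = 0.145). That of mt-Tm was lost without 28 months replicates 1 and 6 (-0.18, adjusted p = 0.117), 28 months replicate 17 (-0.17, adjusted p = 0.121) or the 2 mice that stood apart (-0.17, adjusted p = 0.115).

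**Figure D5:**
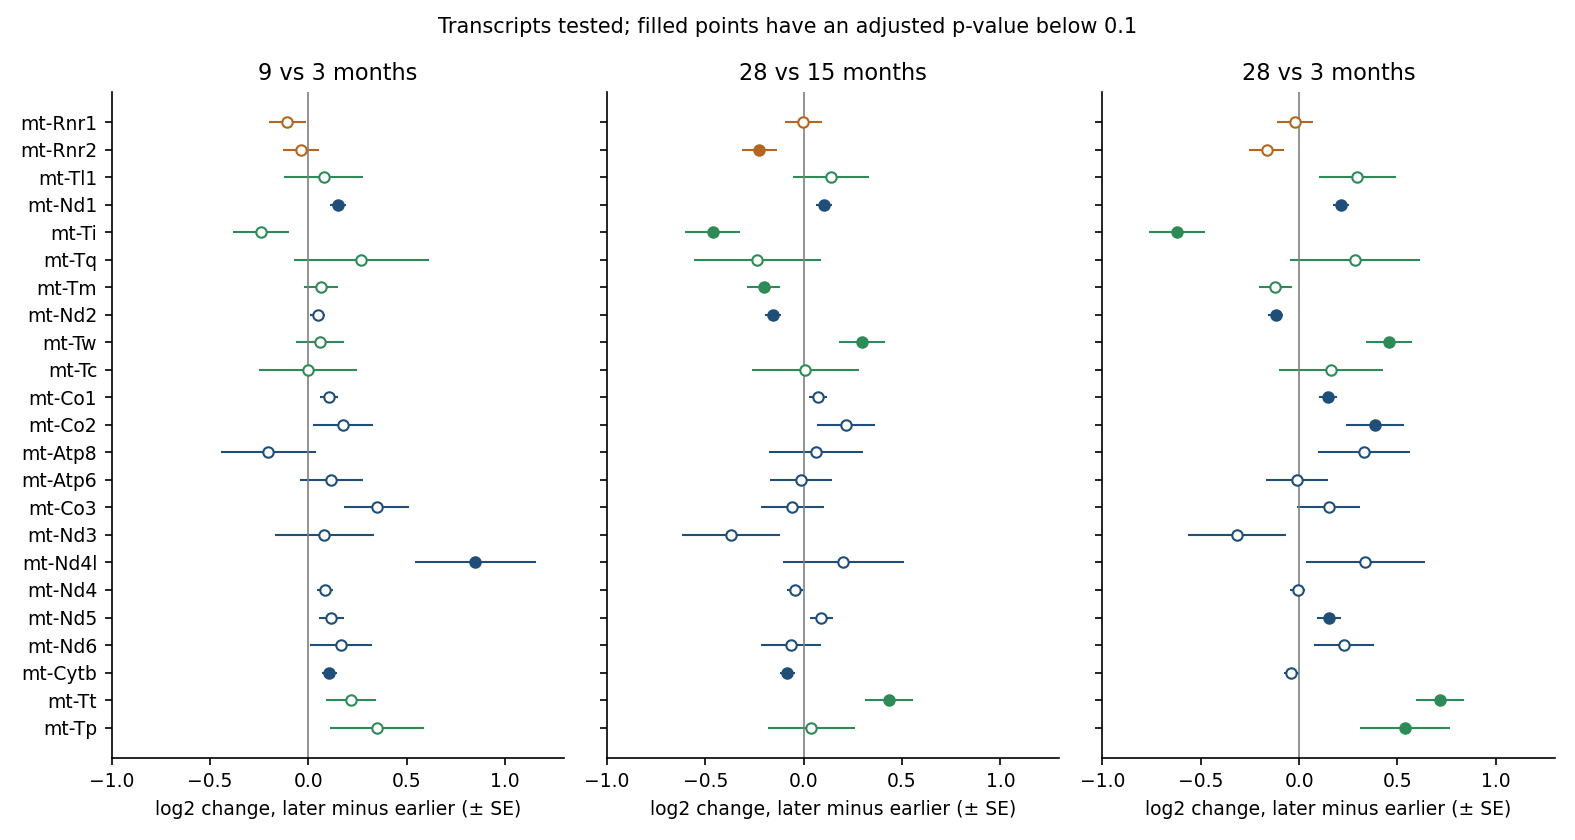
Log2 change with its standard error of the 23 transcripts tested, in the order of the genome, for 9 against 3, 28 against 15 and 28 against 3 months. Filled points have an adjusted p-value below 0.1 (3, 8 and 9 transcripts) and colours separate rRNAs (orange), tRNAs (green) and protein-coding genes (blue); mt-Nd1 lies right of 0 and mt-Ti left of 0 in all 3 panels.

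With all 5 ages tested at once, 10 of the 23 transcripts differed in at least one age, beside 54.9% of all genes. These were mt-Nd1, mt-Nd2, mt-Nd4, mt-Nd4l, mt-Co1, mt-Cytb and the tRNA genes mt-Ti, mt-Tm, mt-Tw and mt-Tt. The lowest adjusted p-values were 1.88e-05 for mt-Tt, 2.56e-04 for mt-Nd1 and 3.34e-04 for mt-Nd2. mt-Nd4 reached an adjusted p of 0.0257 here, with means of 2691 ± 182 CPM at 9 months and 2437 ± 186 at 24 months.

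The nuclear genes that copy, transcribe and process the mitochondrial genome were compared between 3 and 28 months as well. Of 46 such genes, all tested, 6 were higher and 19 lower, with a median log2 change of -0.07 against -0.01 over all genes, beside the background of 23.5% of genes higher and 25.9% lower. Of 10 genes for the copying and packaging of mitochondrial DNA, 4 were higher and 3 lower. Of 10 genes of mitochondrial transcription 1 was higher and 4 lower, of 19 genes of RNA processing and stability 1 was higher and 9 lower, and of 7 regulators of mitochondrial biogenesis 0 were higher and 3 lower.

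The lowest p-values belonged to Polg, the catalytic subunit of the mitochondrial DNA polymerase, and Mgme1, a nuclease that acts on mitochondrial DNA ends. Polg fell from 68.4 ± 2.55 to 59.5 ± 3.66 CPM, by 0.21 on the log2 scale (SE 0.0288, adjusted p = 1.44e-08), and 15 of 18 mice of 28 months lay below every 3-month mouse. Mgme1 fell by 0.33 (SE 0.0472, adjusted p = 3.01e-08). Tk2, the mitochondrial thymidine kinase that supplies nucleotides for DNA copying, rose by 0.19 (SE 0.0368, adjusted p = 2.64e-05). Among genes of RNA processing, Fastkd1 and Fastkd2, members of a family of mitochondrial RNA-binding proteins, fell by 0.29 (SE 0.0550, adjusted p = 1.10e-05) and 0.20 (SE 0.0462, adjusted p = 2.33e-04), and Pde12, a nuclease that removes poly(A) from mitochondrial RNA, fell by 0.26 (SE 0.0593, adjusted p = 1.88e-04).

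Of the respiratory subunits encoded in the nucleus, 8 of 34 were lower and 0 higher between 3 and 28 months, beside 25.9% of all genes lower and 23.5% higher. Their median log2 change was -0.06, and the 34 values ranged from -0.12 to 0.04. Of 10 complex I subunits 3 were lower, of 6 of complex III 2, of 10 of complex IV 2 and of 8 of complex V 1. The 2 lowest log2 changes among those called were -0.12 for Ndufs8 of complex I (SE 0.0373, adjusted p = 0.00558) and -0.12 for Uqcrq of complex III (SE 0.0569, adjusted p = 0.0928), and the 2 highest were -0.09 for Cox6c of complex IV (SE 0.0423, adjusted p = 0.0770) and -0.09 for Ndufv2 of complex I (SE 0.0387, adjusted p = 0.0571). Between 15 and 28 months 16 of the 34 were lower and 0 higher, with a median of -0.07, beside 22.2% of all genes lower and 20.2% higher.

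Markers of the cell types of the colon were counted in the same way, beside 49.4% of all genes called between 3 and 28 months. In this comparison, 1 of 7 colonocyte markers was higher and 1 lower, 2 of 5 goblet cell markers were higher and 3 lower, 0 of 7 smooth muscle markers were called, 1 of 5 plasma cell markers was lower, 4 of 5 macrophage markers were higher and 2 of 5 adipocyte markers were higher. None of these markers was at 0 in all mice. The summed level of the colonocyte markers ranged from 11577 to 16288 CPM at 3 months and from 10309 to 17836 at 28 months, that of the goblet cell markers from 27709 to 37725 and from 22557 to 33416, that of the smooth muscle markers from 836 to 5394 and from 2612 to 5048, that of the plasma cell markers from 2245 to 5111 and from 1925 to 6633, that of the macrophage markers from 94.2 to 153.2 and from 94.5 to 233.8, and that of the adipocyte markers from 24.2 to 107.2 and from 29.8 to 194.2. With the colonocyte and smooth muscle scores as covariates, the 9 calls of mitochondrial transcripts between 3 and 28 months stood. The colonocyte score was 9.82 ± 0.131 at 3 months and 9.79 ± 0.138 at 28 months, and the smooth muscle score 8.63 ± 0.861 and 8.96 ± 0.247. Both differences lay within the SD of the 3-month mice, so this fit says little about the part of cell composition. The goblet cell score, 11.7 ± 0.175 and 11.5 ± 0.211, was not used as a covariate. From 3 to 9 months the same covariates left mt-Nd1 called and mt-Nd4l (0.77 against 0.85 without them, adjusted p = 0.178) and mt-Cytb (0.10 against 0.11, adjusted p = 0.14) not called, while mt-Co1 was called, and from 15 to 24 months mt-Tm was not called (-0.21 against -0.22, adjusted p = 0.127). The part of the other cell types was not tested.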

How the data were processed

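The authors deposited raw counts, one whole number of read pairs for each gene in each mouse, neither normalized nor pooled. Per the study's methods and the submitters' processing notes, reads were trimmed with cutadapt 2.8 and filtered by quality with PrinSeq Lite. They were aligned to GRCm38.p6 with HISAT2 2.1.0. The authors state that unique mappings were kept, with a SAMtools 1.9 flag that drops secondary alignments. Proper pairs were counted by strand with featureCounts of Subread 2.0.1. A read pair that matches a nuclear copy equally well has no unique mapping. Total counts per mouse were 23026370 to 75838290. Symbols were found for 37612 of 37764 gene identifiers, and GENCODE M21 positions for 37652.

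Tests used edgeR 4.0.16 under R 4.3.3: filterByExpr by age (18325 genes), TMM, a quasi-likelihood model of age and library batch over all 83 mice, and F-tests, with Benjamini-Hochberg adjustment within each comparison and a threshold of 0.1 as in the study. Standard errors derive from the F statistic. Marker scores are means of log2 CPM with a prior count of 2. CPM in the text is scaled by TMM, except that CPM per kilobase, shares, summed levels and multiples of a median CPM use total counts. Copies were sought with blastn 2.17.0 among all GENCODE M21 transcripts outside the mitochondrial genome (at least 100 aligned bases and 90% identity). In simulated 28 against 3 months counts of 18247 genes, edgeR called 54 of 100 genes with a log2 change of 0.2, 94 of 100 with 0.5 and 14 of 18047 unchanged genes. Far fewer genes changed there than the 49.4% called between these ages in the data, so these rates do not carry over to the data.

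The members and gene lists were chosen with earlier results of these data known. All protein-coding and rRNA genes are named, with the 4 tRNA genes of highest mean count and any other called, the 6 nuclear genes for mitochondrial genome expression with the lowest p, and the 2 highest and 2 lowest changes among the nuclear respiratory subunits called. The alternatives were DESeq2 1.42.0, its size factors, TMM from nuclear genes, other filters, no batch term, a replicate block, marker scores as covariates, a threshold of 0.05 and fits of only the ages compared. After the data were seen, fits without single mice and with nuclear copies added were run. Where nothing says that mice of an age came from separate litters or cages, p-values measure the spread between these mice.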

Additional observations from a re-analysis of the deposited data

How the results depend on the processing

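Of the 104 counts of called transcripts under other settings, 91 stayed within 1.5 times of the count reported. All 92 differences in share moved by less than 1 SD within an age. Most of these differences were themselves smaller than that SD, so this measure could not show whether they held. The rRNA share at 24 months (0.257%) was below that at 15 months (0.268%), but above it without 15 months replicate 16 (0.256%). No called transcript changed direction under any setting in which it was tested. From 3 to 9 months the 3 calls became 1, mt-Nd1, without a filter on low counts, without the library batch term and at an adjusted p below 0.05. From 15 to 24 months the 2 calls became 1, mt-Nd2, with the colonocyte and smooth muscle scores as covariates and at 0.05, and 0 without a filter. From 24 to 28 months the 1 call became 0 without a filter, at 0.05 and without 28 months replicate 17. With the replicate block, the counts were 1, 1, 0 and 5 for 9 against 3, 24 against 15, 28 against 24 and 28 against 15 months, and 9 for 28 against 3 months, where mt-Co2 was lost (adjusted p = 0.101) and mt-Nd6 gained. The calls lost with the replicate block between 15 and 28 months were mt-Tw (0.22, adjusted p = 0.123), mt-Tm (-0.16, adjusted p = 0.139) and mt-Cytb (-0.08, adjusted p = 0.124). The labels do not say that mice of the same number are related, and deviations of 161 same-numbered pairs had a median correlation of 0.010, with 27 over 0.1. Calls gained in single settings, beside those given with the results, were mt-Co1 from 3 to 9 months without the 2 mice that stood apart, mt-Nd4l (DESeq2, or without 9 months replicate 7) and mt-Ti (only the ages compared) from 15 to 24 months, and mt-Nd3 (only the ages compared) from 15 to 28 months. The cause of these losses and gains was not tested.

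Between 3 and 28 months, mt-Nd1, mt-Nd2, mt-Co1, mt-Nd5, mt-Ti, mt-Tw and mt-Tt were called in all 15 alternatives, with adjusted p-values up to 7.48e-05 for mt-Nd1, 1.71e-04 for mt-Tt, 0.00107 for mt-Ti, 0.00394 for mt-Tw, 0.0249 for mt-Co1, 0.0635 for mt-Nd5 and 0.0706 for mt-Nd2. mt-Co2 was lost in 3. mt-Tp was called in 13 of the 14 in which it was tested, with adjusted p-values up to 0.0914, and lost at the threshold of 0.05. The tRNA genes had low counts, as had mt-Nd3 and mt-Nd4l, with medians of 29 and 96 per mouse. The changes of mt-Nd3 and mt-Nd4l are imprecise (SE 0.250 and 0.303), and that of mt-Tt, with a median of 56, less so (SE 0.122). The part of the low counts in the SE was not tested.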
